A study of Mus musculus with 9 samples.

Results

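The data described are the Slc4 bicarbonate transporters of adult olfactory bulb stem cells (aOBSCs) grown as neurospheres, that is, as floating clusters of dividing neural stem and progenitor cells. The members are all probe sets whose gene symbol is Slc4a2, Slc4a3, Slc4a4, Slc4a7, Slc4a8, Slc4a10 or Slc4a11. Of the 7 genes, 6 had a probe set and 16 probe sets in all were found, among 45037 probe sets and 18193 genes on the arrays. No probe set carried the symbol Slc4a7, which was not analysed here. The family was chosen by the log2 difference of Slc4a10 between cultures fed every 2 days and daily, which is among the largest increases there, so that comparison is described without a test for it.

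RNA was measured with Affymetrix Mouse Genome arrays, whose short probes are grouped into probe sets, each for 1 transcript or a few. The cultures came from the olfactory bulbs of CD1 mice, from 4 months to over 1 year old, or of adult C57Bl/6 mice (for the RNA cultures 2 ages are given, 7 months and over 1 year), and which array holds which mice is not stated in the sources used here. All received FGF-2 and EGF, the factors that keep neural stem cells dividing, at 20 ng/ml each, daily up to passage 3. For 2 further passages the factors were still added daily in the control cultures (Ctr), whereas C2 cultures were fed at intervals of 2 days and C4 cultures at intervals of 4 days. Spheres were collected after 7 days, which left C2 cells 1 day and C4 cells 3 days from the last addition. Each of the 3 conditions has 3 arrays, labelled as replicates 1 to 3. Whether these were separate cultures or animals is not stated, and p-values measure only the spread between the arrays.

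Slc4 proteins carry bicarbonate across membranes and so set the pH inside and outside cells. Slc4a2 and Slc4a3 (AE2 and AE3) exchange chloride for bicarbonate and acidify the cell. Slc4a4 (NBCe1), Slc4a7 (NBCn1), Slc4a8 (NDCBE) and Slc4a10 (NCBE, also NBCn2) couple bicarbonate to sodium and as a rule load the cell with base. In the brain Slc4a4 is best known from astrocytes, Slc4a8 and Slc4a10 from neurons, and Slc4a10 also from the epithelium of the choroid plexus. Slc4a11 is a relative that conducts protons or hydroxide rather than bicarbonate.

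Transcript starts of Slc4a10 and Slc4a4 are shown because these genes hold the widest differences of the family, in C2 and in C4 respectively. Each line is a RefSeq window on GRCm38.p6, plus strand, of 250 bases before and 50 after a transcript start, with CG dinucleotides, the sites of DNA methylation, in capitals. The first 2 lie at chr2:62046265-62046564 and chr2:62147628-62147927, and the last 2 at chr5:88887010-88887309 and chr5:89027716-89028015. Only Slc4a10 window 1 spans the start of its gene. Slc4a10 window 2 and both Slc4a4 windows lie inside their genes, at later transcript starts.
Slc4a10 window 1: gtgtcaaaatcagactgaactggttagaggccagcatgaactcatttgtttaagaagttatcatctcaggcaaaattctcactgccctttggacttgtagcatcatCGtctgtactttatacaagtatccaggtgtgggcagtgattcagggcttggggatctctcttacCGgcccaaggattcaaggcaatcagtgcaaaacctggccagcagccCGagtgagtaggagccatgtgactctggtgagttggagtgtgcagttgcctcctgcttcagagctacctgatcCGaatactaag
Slc4a10 window 2: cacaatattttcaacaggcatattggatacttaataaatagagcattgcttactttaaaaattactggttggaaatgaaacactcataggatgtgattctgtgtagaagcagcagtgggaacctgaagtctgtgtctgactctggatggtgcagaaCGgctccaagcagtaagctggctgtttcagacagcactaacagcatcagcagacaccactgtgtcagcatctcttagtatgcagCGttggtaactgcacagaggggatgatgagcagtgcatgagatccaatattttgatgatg
Slc4a4 window 1: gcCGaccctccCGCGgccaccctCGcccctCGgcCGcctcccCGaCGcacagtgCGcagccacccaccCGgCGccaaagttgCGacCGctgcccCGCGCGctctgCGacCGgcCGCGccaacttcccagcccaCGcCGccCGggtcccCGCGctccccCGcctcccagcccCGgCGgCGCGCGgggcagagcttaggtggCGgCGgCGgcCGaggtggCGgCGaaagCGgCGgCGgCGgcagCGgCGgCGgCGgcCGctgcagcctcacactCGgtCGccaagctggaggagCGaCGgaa
Slc4a4 window 2: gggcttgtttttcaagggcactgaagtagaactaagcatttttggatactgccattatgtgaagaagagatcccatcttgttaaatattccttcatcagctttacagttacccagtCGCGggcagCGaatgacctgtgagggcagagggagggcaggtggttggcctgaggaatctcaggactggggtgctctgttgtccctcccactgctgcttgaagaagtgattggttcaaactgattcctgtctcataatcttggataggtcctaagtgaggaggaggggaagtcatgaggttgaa

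The 2 Slc4a10 windows held 4 and 2 CG dinucleotides, with 48.3% and 43.0% G or C, against a median of 7 CG dinucleotides and 52.7% G or C over 32851 windows of the same length. Slc4a4 had 1 window rich in CG (50, more than in 99.1% of all windows, with 80.0% G or C) and 1 poor in it (3, with 48.3% G or C). The windows of 6 members, 9 in all, were searched on both strands for 5 motifs, none of which contains another. The AP-1 motif TGANTCA stood in 1 member window, Slc4a10 window 1, as TGATTCA from position -108 to -102 relative to the start, and in 7.81% of all windows. The ETS motif CCGGAAG was found in 1 of them, a Slc4a2 window, and in 8.86% of all windows. The CRE motif TGACGTCA (1.79% of all windows), the FOXO motif GTAAACA (3.65%) and the ATF4 motif TGATGNAA (3.97%) were found in 0 of 9. These matches are descriptions of the letters, and binding was not measured.

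The values are on the log2 scale after GCRMA normalisation, which takes off a background modelled on each probe's bases, so a difference of 1 is 1 doubling. GCRMA gives probe sets without signal a common low value, and between 34.8% and 35.8% of the probe sets of each array stood at its lowest value. Values under 4 are called near the floor here. Arrays of the same condition correlated at 0.998 to 0.999 across probe sets, and no array stood apart. Of the 16 Slc4 probe sets, 7 were over 4 on at least 3 arrays, as were 18380 of all probe sets, and 9 were not. Probe sets differ in how they hybridise, so no level is compared between genes.

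Slc4a10 (1417672_at), the sodium-driven transporter of neurons and choroid plexus, lies on chromosome 2, at 62046472 to 62326743 of GRCm38.p6. Its log2 values were 4.08 on each of the 3 Ctr arrays, 5.80, 5.81 and 5.93 on the C2 arrays, and 3.56, 3.57 and 3.47 on the C4 arrays. Every C2 array was above, and every C4 array below, the Ctr arrays. The C2 mean of 5.85 ± 0.074 (SD, n = 3) was 1.76 above the Ctr mean, or 3.39-fold, which is the value that chose the family. It ranked 4 among all probe sets by its increase in C2, between Cox6a2 (1.83, rank 3) and a probe set of P2rx3 (1.59, rank 5). In C2, 27 probe sets were higher and 11 lower by at least 1.

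In C4 Slc4a10 was lower, with a difference of -0.55 from Ctr (SE 0.047, adjusted p = 0.00143, limma) and a C4 mean near the floor at 3.53 ± 0.055 (SD, n = 3). This p uses the Ctr values by which the gene was chosen, and since their SD is 0 its SE rests on the spread within C2 and C4 and on the variance prior. With values under 4 raised to 4 the difference was -0.083 and no longer passed (adjusted p = 0.154). The difference between C4 and C2 was -2.31, or -1.85 with values under 4 raised to 4, both as descriptions. The 3 Ctr values were identical to the last digit, which GCRMA also gave for 7641 probe sets that varied elsewhere on the arrays. Of these, 689 had a Ctr value over 4, as Slc4a10 did. An SD of 0 in Ctr is therefore no measure of how the cultures varied.

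**Figure D1:**
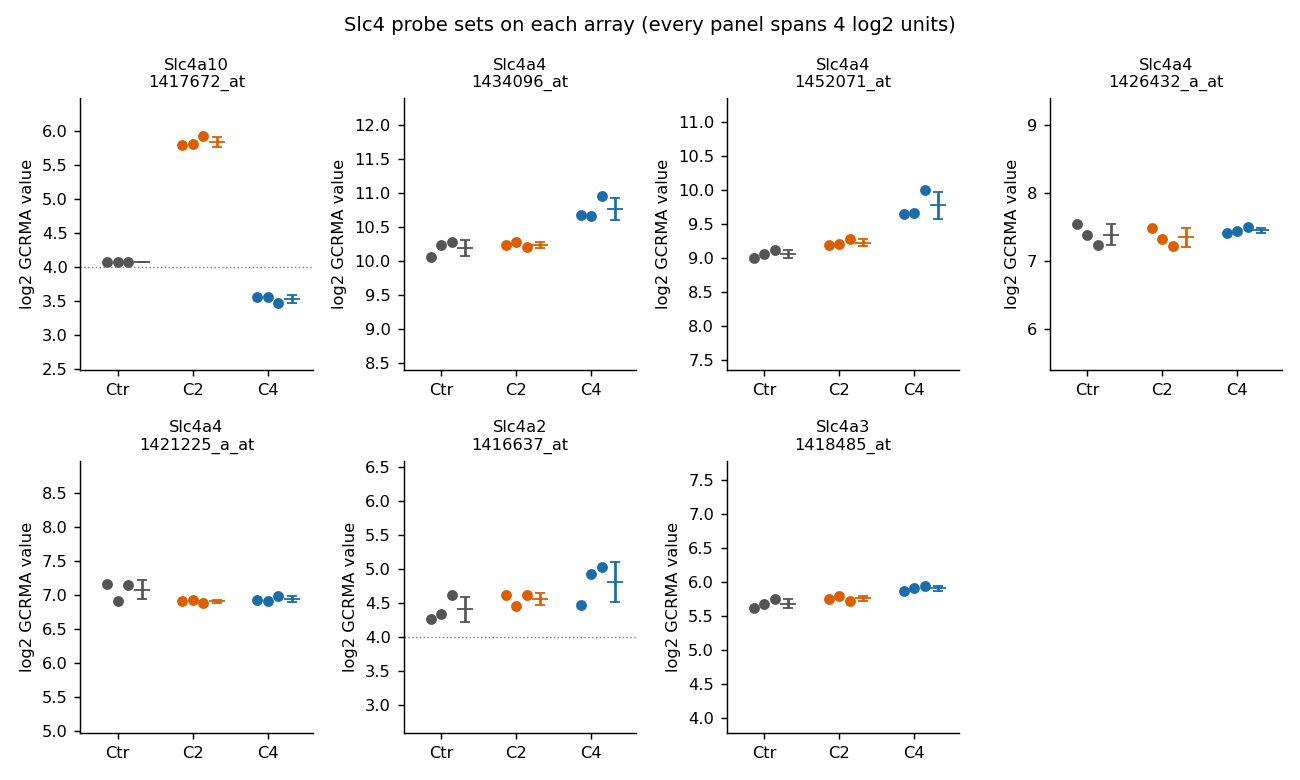
Log2 GCRMA values of the 7 Slc4 probe sets over 4 on at least 3 arrays, by condition (Ctr, C2, C4). Points are arrays, bars the mean and SD (n = 3), the dotted line the value 4, and every panel spans 4 log2 units. Slc4a10 is highest on the C2 arrays (5.80 to 5.93), and Slc4a4 probe sets 1434096_at and 1452071_at are highest on the C4 arrays.

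Slc4a4, which encodes the electrogenic sodium bicarbonate cotransporter NBCe1, lies on chromosome 5, at 88793858 to 89239656. It was read by 5 probe sets, of which 2 rose in C4. Probe set 1434096_at gave 10.06, 10.23 and 10.28 in Ctr, 10.23, 10.28 and 10.21 in C2, and 10.69, 10.66 and 10.96 in C4. The C4 arrays did not overlap the others, while Ctr and C2 did overlap. The rise in C4 was 0.58, or 1.49-fold, against Ctr (SE 0.094, adjusted p = 0.0160, limma) and 0.53 against C2 (SE 0.094, adjusted p = 0.0253). C2 differed from Ctr by 0.050 (SE 0.094).

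Probe set 1452071_at gave 9.00, 9.05 and 9.11 in Ctr, 9.18, 9.21 and 9.28 in C2, and 9.65, 9.67 and 10.00 in C4. The 3 conditions did not overlap. The rise in C4 was 0.72, or 1.65-fold, against Ctr (SE 0.095, adjusted p = 0.00745) and 0.55 against C2 (SE 0.095, adjusted p = 0.0235), and C2 was 0.17 above Ctr (SE 0.095). On the third C4 array both probe sets were highest. They correlated at 0.973 over the 9 arrays, and at 0.518 over the 6 arrays of Ctr and C2. These correlations hold the difference between conditions and are descriptions.

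The other Slc4a4 probe sets did not pass. The suffix _a_at of 1426432_a_at and 1421225_a_at marks probe sets that read several transcripts of 1 gene. Probe set 1426432_a_at ranged from 7.24 to 7.55 in Ctr, 7.23 to 7.50 in C2 and 7.42 to 7.50 in C4, with a C4 difference of 0.064 (95% interval -0.16 to 0.29, adjusted p = 0.988). Probe set 1421225_a_at ranged from 6.92 to 7.17 in Ctr, 6.88 to 6.93 in C2 and 6.91 to 6.99 in C4, with a C4 difference of -0.14 (95% interval -0.30 to 0.024, adjusted p = 0.431). The intervals of both lay below the C4 differences of the probe sets that rose. Probe set 1450169_at stood at 2.27 on all 9 arrays. Whether the probe sets read different Slc4a4 transcripts was not tested. With the probe sets of the gene averaged, Slc4a4 was higher in C4 than in Ctr (adjusted p = 0.0134) and than in C2 (adjusted p = 0.0147).

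Fitted on the 6 Ctr and C4 arrays alone, neither of these Slc4a4 rises passed (adjusted p = 0.0844 for 1434096_at and 0.0503 for 1452071_at). The rises against C2 were both lost when Ctr replicate 2 or any C2 array was left out, with adjusted p between 0.0538 and 0.0899.

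Of the chloride-bicarbonate exchangers, Slc4a3 (AE3, chromosome 1, 75546044 to 75559431) rose slightly in C4. Probe set 1418485_at gave 5.62, 5.67 and 5.75 in Ctr, 5.75, 5.80 and 5.72 in C2, and 5.86, 5.91 and 5.93 in C4. The C4 arrays lay above all others. The C4 difference was 0.22, or 1.17-fold (SE 0.042, adjusted p = 0.0284), and it did not pass when arrays were centred on their medians (adjusted p = 0.149) or when 1 of 5 arrays was left out. Against C2 the C4 difference was 0.15 (SE 0.042, adjusted p = 0.136). The second probe set, 1453687_at, stayed at 2.27.

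Slc4a2 (AE2, chromosome 5, 24423761 to 24440947), the widely expressed exchanger, was read by 1416637_at at 4.27, 4.34 and 4.61 in Ctr, 4.61, 4.46 and 4.61 in C2, and 4.47, 4.92 and 5.03 in C4. The conditions overlapped. The C4 difference from Ctr was 0.40 with a 95% interval from 0.0096 to 0.79 before adjustment (adjusted p = 0.300), and that from C2 was 0.25 (adjusted p = 0.648).

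Slc4a8 and Slc4a11 were near the floor on all 9 arrays. The 5 probe sets of Slc4a8 (chromosome 15, 100761747 to 100823971), the neuronal sodium-driven exchanger, included 1423443_at at 3.40 to 3.58 and 1419851_at at 2.27 on 8 arrays and 2.89 on the first C2 array. The other Slc4a8 probe sets and both of Slc4a11 (chromosome 2, 130684107 to 130697519) lay between 2.27 and 2.30. A gene near the floor was not detected by these probes, which does not show that its RNA is absent.

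**Figure D2:**
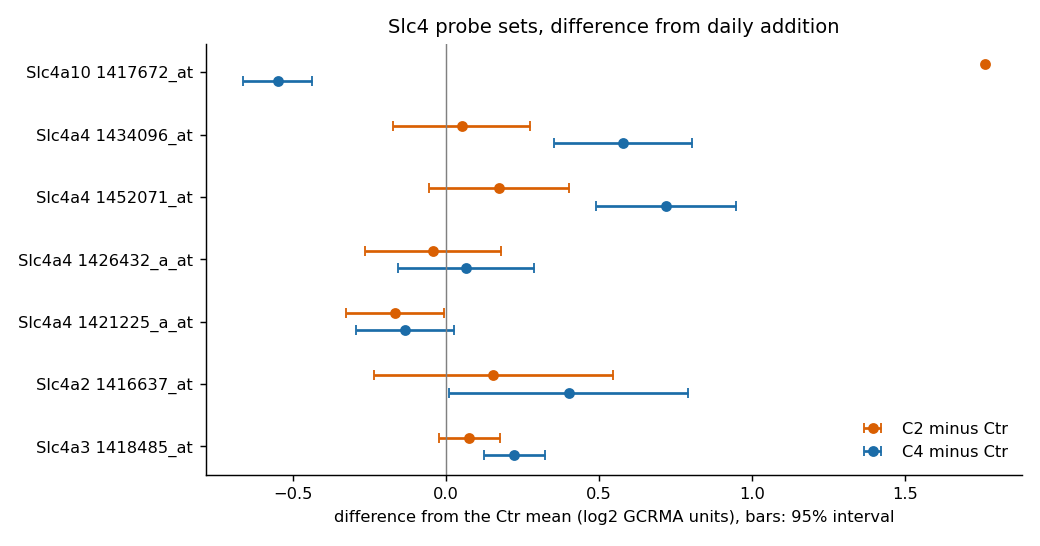
Difference from the Ctr mean in log2 GCRMA units for the same 7 probe sets, C2 in orange and C4 in blue, with 95% intervals of the limma fit before adjustment (n = 3 per condition). The C2 value of Slc4a10 (1.76) chose the family and is drawn without an interval. In C4 Slc4a10 is lower and Slc4a4 1434096_at and 1452071_at and Slc4a3 are higher. The C4 intervals of the other Slc4a4 probe sets drawn include 0. Those of Slc4a2 in C4 (0.0096 to 0.79) and of 1421225_a_at in C2 (-0.33 to -0.0077) leave out 0, but neither passed after adjustment.

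Counted over the family without Slc4a10, 3 of 15 probe sets passed in C4 against Ctr, all higher, where 6.29% of all probe sets and 15.0% of those over 4 on at least 3 arrays passed. Of the 15, 6 were over 4 on at least 3 arrays, and the 3 that passed were among these 6. The 3 stand for 2 genes, since 2 read Slc4a4. With Slc4a10, whose Ctr arrays chose the family, 4 of 16 passed, 3 higher and 1 lower, and with values under 4 raised to 4 the lower call was lost. Without Slc4a10, 2 of 15 passed in C4 against C2, both of Slc4a4, higher and among the 6 over 4 (5.25% of all probe sets, 12.6% of those over 4). In C2 against Ctr, the comparison that chose the family, 0 of 15 passed in the limma fit without Slc4a10 and 1 had an unadjusted p under 0.05 (1.70% and 4.06%), from which nothing is read. The median C4 difference of the 7 probe sets over 4 was 0.22, against 0.037 for all probe sets over 4. Both medians are descriptions, since probe sets near the floor in all conditions cannot differ.

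Over the 9 arrays the correlation of the other 6 Slc4 probe sets over 4 with Slc4a10 lay between -0.25 and -0.59. The median over the 4115 genes compared below was -0.11. These correlations hold the Ctr and C2 values by which Slc4a10 was chosen and are descriptions. The genes whose pattern was most like that of Slc4a10 were found by Pearson correlation over the 9 arrays among 4115 genes with 1 symbol, a mean of at least 4 in their highest condition and a range of at least 0.5. They were Ddit3 (0.997), which encodes the stress transcription factor CHOP, Cox6a2 (0.994), a subunit of cytochrome c oxidase known from heart and muscle, Arpc5l (0.992), a subunit of the actin-branching Arp2/3 complex, Slc25a33 (0.990), a mitochondrial pyrimidine nucleotide carrier, Cyb5r1 (0.989), a cytochrome b5 reductase, and Psph (0.988), which makes serine from phosphoserine. The next gene reached 0.986. By Spearman correlation 1 of the 6 was again among the first 6.

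All 6 had a higher mean in C2 and a lower one in C4 than in Ctr, a direction that their choice by correlation with Slc4a10 over the same arrays largely fixes. Their C2 differences ranged from 0.58 (Arpc5l) to 1.83 (Cox6a2) and their C4 differences from -0.27 (Arpc5l) to -0.74 (Cyb5r1). Ddit3 had 8.96 to 9.10 in Ctr, 9.85 to 9.94 in C2 and 8.70 to 8.80 in C4, with no overlap between conditions. A second Ddit3 probe set, 1443897_at, differed from Ctr by 0.036 in C2 and 0.15 in C4 and so did not share the pattern. A second Arpc5l probe set, 1436421_s_at, shared it (0.60 in C2 and -0.25 in C4). The Cox6a2 probe set 1457633_x_at was 2.24 higher in C2 and near the floor in Ctr and C4. The arrays are 3 conditions of 3, and a correlation over them is mainly an order of 3 means.

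**Figure D3:**
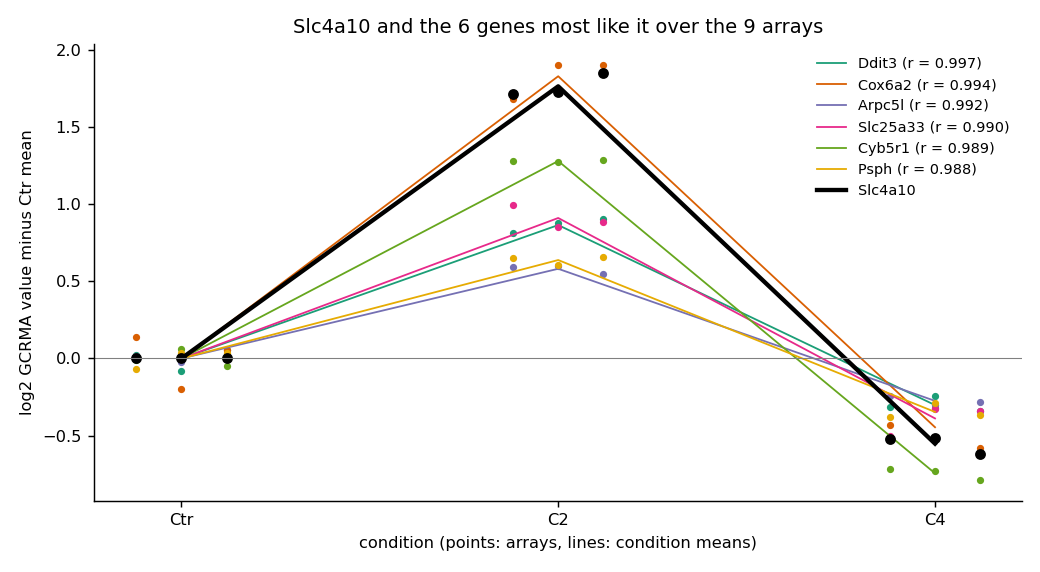
Log2 GCRMA value minus the Ctr mean on the 9 arrays for Slc4a10 (black) and the 6 genes most like it (colours, Pearson r in the legend). Points are arrays and lines join condition means. All 7 genes have their highest mean in C2 and their lowest in C4, and Slc4a10 and Cox6a2 have the widest C2 difference (1.76 and 1.83).

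Cell type markers were set beside the family after their values were seen, so counts of markers are descriptions. Of 10 measured markers of neural stem and progenitor cells 9 were over 4, among them Sox2 with means of 12.9 to 13.1 and Fabp7 with 14.5 to 14.8, while Prom1 was near the floor. In C4 4 of the 10 rose (Egfr by 0.83, Pax6 by 0.57, Notch1 by 0.43 and Fabp7 by 0.34) and 1 fell (Vim, difference -0.40), beside 6.29% of all probe sets and 15.0% of those over 4. None of the 10 passed in C2. Slc4a10 is known from neurons and choroid plexus. None of 14 markers of neuroblasts and neurons passed in C2, and none of 7 of choroid plexus and ependyma. The share was 1.70% of all probe sets and 4.06% of those over 4. Only 2 of the 14 and 1 of the 7 were over 4 on at least 3 arrays. Markers near the floor in every condition can hardly pass, so nothing is read from these zeros. In C4 1 of the 14 fell, Gad1, with a difference of -0.37 (limma, adjusted p = 0.0152), and none of the 7 passed, beside the same 6.29% and 15.0%. Gad1 also stood lower in C2, where Slc4a10 was higher (difference -0.33, adjusted p = 0.0529), and its C4 mean differed from that in C2 by -0.034. Dcx, Stmn2, Ttr and Kl had means of 2.27 to 2.29 in every condition. The summed level of the neuronal list (log2 of the sum) ranged from 12.51 to 12.52 in Ctr, 12.36 to 12.46 in C2 and 12.44 to 12.62 in C4, carried by Map2 and Gad1. That of the choroid plexus and ependyma list ranged from 5.48 to 5.63, 5.47 to 5.60 and 5.40 to 5.46.

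For astrocytes, in which Slc4a4 is known, 3 of 7 markers rose in C4 and none fell, beside the same 6.29% and 15.0%: Aldh1l1 from a mean of 8.12 to 9.23 (adjusted p = 0.000783), S100b from 7.24 to 8.29 and Aqp4 from 5.51 to 6.23. Slc1a3, Slc1a2, Gja1 and Gfap did not pass (differences 0.31, 0.55, 0.089 and 0.11). In C2 Aldh1l1 fell, with a difference of -0.76, and the others did not pass, among them Aqp4 at -0.45. The share in C2 was 1.70% of all probe sets and 4.06% of those over 4. Gfap had means of 3.68, 3.98 and 3.79 in Ctr, C2 and C4. The summed level of the list ranged from 13.21 to 13.40 in Ctr, 13.25 to 13.40 in C2 and 13.55 to 13.60 in C4. Of 6 oligodendrocyte lineage markers 3 also rose in C4 (Pdgfra, Cspg4 and Gpr17), beside the same shares, with a summed level of 7.84 to 7.88 in Ctr, 7.51 to 7.67 in C2 and 8.75 to 9.17 in C4, while Mbp, Mog and Sox10 were near the floor in every condition. On the arrays Gpr17, alone of the 6, fell in C2 (difference -1.71), to values near the floor (3.12, 3.62 and 2.63), beside the same C2 shares. By quantitative PCR the study reported the opposite direction, with Gpr17 higher in C2 than in control cultures. Markers of stem and progenitor cells, astrocytes and the oligodendrocyte lineage thus changed in C4, as did Gad1 of the neuronal list. The part of any of these cell types in the Slc4a4 rise was not tested. In these bulk samples a change in the number of cells of a type and a change in RNA per cell cannot be told apart.

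Other acid-base genes were taken from 7 lists. Of 64 genes listed 59 were measured and 21 were over 4, each by its probe set of highest mean. In C4, 2 rose and 3 fell, beside 6.29% of all probe sets and 15.0% of those over 4. In C2, 1 rose and 1 fell, beside 1.70% and 4.06%. All of these were among the 21 over 4, and the 38 others were near the floor. The remaining family genes Slc4a1, Slc4a5 and Slc4a9 were near the floor. None of 10 Slc26 anion exchangers passed, and only 2 of them were over 4.

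Ahcyl1 encodes IRBIT, a protein that binds and activates NBCe1. Its probe set 1426830_a_at gave 11.16, 11.03 and 11.05 in Ctr, 11.06, 11.09 and 11.18 in C2, and 11.58, 11.53 and 11.60 in C4. It rose in C4 by 0.49 (SE 0.047, adjusted p = 0.00213), with all C4 arrays above the others. A second probe set, 1425576_at, rose by 0.39 (adjusted p = 0.0374), and the third, 1426831_at, differed by 0.26 (adjusted p = 0.129). Ahcyl2, its homologue, differed by -0.056 (adjusted p = 0.711).

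Of 16 carbonic anhydrases, which interconvert carbon dioxide and bicarbonate, 4 were over 4. Car3 fell in C4 by 0.33, from 10.20, 10.10 and 10.07 in Ctr to 9.78, 9.82 and 9.78 (SE 0.045, adjusted p = 0.00831), and its probe set 1460256_at differed by -0.32 (adjusted p = 0.348). Car2, the main cytosolic form, differed by 0.14 in C2 and 0.15 in C4, neither passing (adjusted p = 0.334 and 0.156).

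Among sodium-proton exchangers, which extrude acid or act in organelles, Slc9a7 rose in C4 from 8.45, 8.51 and 8.35 to 8.80, 8.79 and 8.87 (difference 0.38, SE 0.080, adjusted p = 0.0408). Slc9a9, an endosomal exchanger, rose in C2 from 6.32, 6.37 and 6.24 to 7.15, 6.99 and 7.27 (difference 0.83, SE 0.12, adjusted p = 0.0332), while its probe set 1437488_at differed by 0.26 (adjusted p = 0.735). Slc9a9 in C4 did not pass (0.17, adjusted p = 0.632). Of proton-coupled lactate transport, Slc16a1 (MCT1) fell in C4 by 0.28 (SE 0.053, adjusted p = 0.0283) and Bsg (basigin), the chaperone of MCT1, fell in C2 by 0.39 (SE 0.049, adjusted p = 0.0204). Slc12a2 (NKCC1), which brings chloride into the cell, fell in C4 by 0.44 (SE 0.091, adjusted p = 0.0388). Its other probe sets differed by -0.58 and -0.71 without passing (adjusted p = 0.117 and 0.316).

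When 1 of the 9 arrays was left out in turn, Ahcyl1 and Car3 passed in 9 of 9 fits. Slc16a1 and Bsg passed in 4, Slc9a7 and Slc12a2 in 2 and Slc9a9 in 1.

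**Figure D4:**
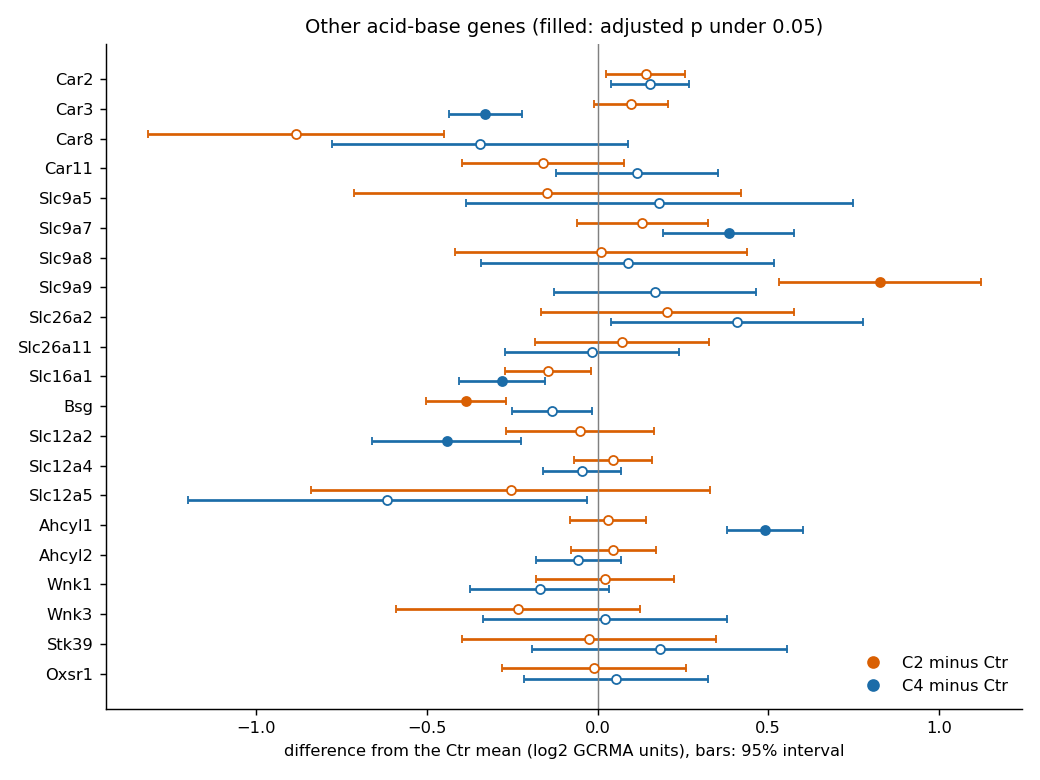
Difference from the Ctr mean in log2 GCRMA units for the 21 acid-base genes over 4 on at least 3 arrays, C2 in orange and C4 in blue, with 95% intervals before adjustment (n = 3 per condition). Filled points have an adjusted p under 0.05: Slc9a9 and Bsg in C2, and Car3, Slc9a7, Slc16a1, Slc12a2 and Ahcyl1 in C4.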

How the data were processed

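Gene expression was measured in aOBSC neurospheres on 9 Affymetrix Mouse Genome arrays, 3 for each interval of growth factor addition. The authors processed the arrays with GCRMA (version not given in the sources used here), and the deposited log2 values were used as they stand. GCRMA fixes low probe sets at a common value, so a change near the floor depends on it. Control probe sets (64 of 45101) were left out. Symbols came from the platform annotation, and positions and promoter windows from RefSeq (GRCm38.p6).

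Conditions were compared with limma 3.58.1 in R 4.3.3, fitting a mean for each condition and a variance prior that follows intensity (degrees of freedom 6 residual, 0.574 prior). The Benjamini-Hochberg adjustment covered all 45037 probe sets, and a probe set passed at an adjusted p under 0.05. The fit was tested on simulated data. Intervals are 95% before adjustment. Array data have no read depth, and precision is limited by the 3 arrays a condition.

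Named genes are all member probe sets, the 6 genes most correlated with Slc4a10, and up to 4 genes per acid-base list that passed. Markers, Ahcyl2, Car2, P2rx3 and the other probe sets named were added after their values were seen. The members and lists were chosen with earlier results of these data known. Alternatives were a replicate block, filters, no intensity trend, robust fits, 2 conditions alone, median centring, values raised to 4, gene means and leaving out each array.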

Additional observations from a re-analysis of the deposited data

How the results depend on the processing

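Of the counts given, 4 Slc4 probe sets in C4 against Ctr became 1 with only the arrays of the 2 conditions, and 3 to 4 with 1 array left out. The 2 in C4 against C2 (Slc4a10 left out) became 1 with the replicate block and 0 with the robust option or the 2 conditions alone, and 0 to 2 with 1 array left out (0 without Ctr replicate 2 or any 1 of the C2 arrays). The 0 in C2 against Ctr became 1 without Ctr replicate 2 and stayed 0 in the other fits. The 5 acid-base genes in C4 became 3 with the replicate block, 2 with the robust option, 3 with the 2 conditions alone and 3 with values raised to 4, and 2 to 6 with 1 array left out. The 2 in C2 became 0 with the replicate block, 0 with the robust option and 1 with the 2 conditions alone, and 0 to 2 with 1 array left out. Slc4a10 passed in C4 against Ctr without each array in turn, with differences of -0.57 to -0.52. These fits all use Ctr values by which the gene was chosen. With values under 4 raised to 4 it did not pass (-0.083, adjusted p = 0.154). Of Slc4a4, 1434096_at in C4 against Ctr did not pass without Ctr replicate 2 (0.60, adjusted p = 0.0529), 1421225_a_at passed there (-0.22, adjusted p = 0.0170), and 1426432_a_at ranged from -0.011 (without Ctr replicate 3, a change of sign) to 0.14 with 1 array left out and never passed. Slc4a3 in C4 did not pass without Ctr replicate 1 (adjusted p = 0.0766) or 2 (0.0998), C2 replicate 1 (0.0592) or C4 replicate 2 (0.0925) or 3 (0.0885). Nor did Slc4a3 pass with the replicate block (0.0678), the robust option (0.380), the 2 conditions alone (0.0946) or median centring (0.149). Deviations from the condition means correlated at -0.043 to 0.13 between arrays of the same replicate number (9 pairs, median 0.011). Between arrays of different numbers they correlated at -0.12 to 0.092 (18 pairs, median -0.021). With 3 arrays a condition, these values cannot show whether the numbers pair the arrays. Over all probe sets, 767 passed in C2 against Ctr (45 with the robust option, 237 with the replicate block, 371 with the 2 conditions alone, 1825 with the filter on low values, and 323 to 584 with 1 array left out) and 2833 in C4 (1386, 1996, 1618, 4697, and 1818 to 2585). The cause of these changes was not tested.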
